A study of Mus musculus with 6 samples.

Results

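The genes described here are 46 regulators of chromatin and splicing, most of them recurrently mutated or rearranged in human acute myeloid leukaemia, followed in a mouse leukaemia line after inhibition of the ETS family factor PU.1, which the gene Spi1 encodes. They were named in a list and matched to rows of the deposited array table that carry exactly 1 gene symbol, taking the brightest row over the 6 arrays where a gene had several. Rows were found for 42 of the 46 genes, out of 22180 genes tested in all. Kdm2b and Bcor were covered only by rows that name a second gene as well, and Ncor1 and Zrsr2 had no row under these symbols in the annotation used, so these 4 were not analysed here.

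The comparison was between 2 groups of 3 arrays, all from the PU.1low URE-/- line, which was derived from a single leukaemic mouse lacking the upstream regulatory element of Spi1, so every sample carries this deletion. One group received DB2313, a small molecule PU.1 inhibitor, at 330 nM for 24 h, and the other an equal volume of water as vehicle for 24 h. The 3 arrays of each group are labelled biological replicates. Separate cultures are not stated, so the p-values measure only the spread between these samples, which may be technical.

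Cells write, read and erase chemical marks on DNA and histones, and these marks set which genes can be transcribed. DNA methyltransferases add methyl groups to cytosine and TET enzymes oxidise them, Polycomb complexes keep developmental genes silent, MLL complexes keep others active, cohesin folds chromosomes into loops, and the spliceosome joins exons. In blood stem and progenitor cells, loss or mutation of some of these factors favours self-renewal over differentiation, whereas Bmi1 is needed for self-renewal. Mutations of several are among the earliest lesions of human myeloid leukaemia.

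At an adjusted p of 0.05 (limma, Benjamini-Hochberg over all genes tested), 0 of the 42 genes were called in either direction, against 1.81% of all genes, 1.02% higher and 0.789% lower with DB2313. At an unadjusted p of 0.05, 7 of the 42 were called (16.7%), against 12.7% of all genes tested and 17.6% of genes with a signal at or above the median. An unmoderated test per gene called 1 of the 42, Kmt2a, against 0.316% of all genes. The differences were small: the median over the 42 genes was 0.020 on the log2 scale, against -0.0024 over all genes tested, and the extremes were -0.36 for Bmi1 and 0.29 for Tet2. The 95% confidence interval of the difference lay within a 1.5-fold change either way for all 42 genes, as it did for 95.4% of all genes tested and 95.2% of genes with a signal at or above the median. It lay within a 1.25-fold change for 33 of the 42 (78.6%), against 61.5% and 68.7%. For the 249 other genes of the same complexes or of related functions described below, that share was 80.3%. All 3 DB2313 arrays lay above all 3 vehicle arrays for 11 of the 42 genes (26.2%), against 9.75% of all genes and 14.7% of genes with a signal at or above the median. They lay below for 4 (9.52%), against 9.55% and 13.5%. In a bulk measurement, a change in the share of cells that carry a transcript and a change in its amount per cell cannot be told apart.

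**Figure D1:**
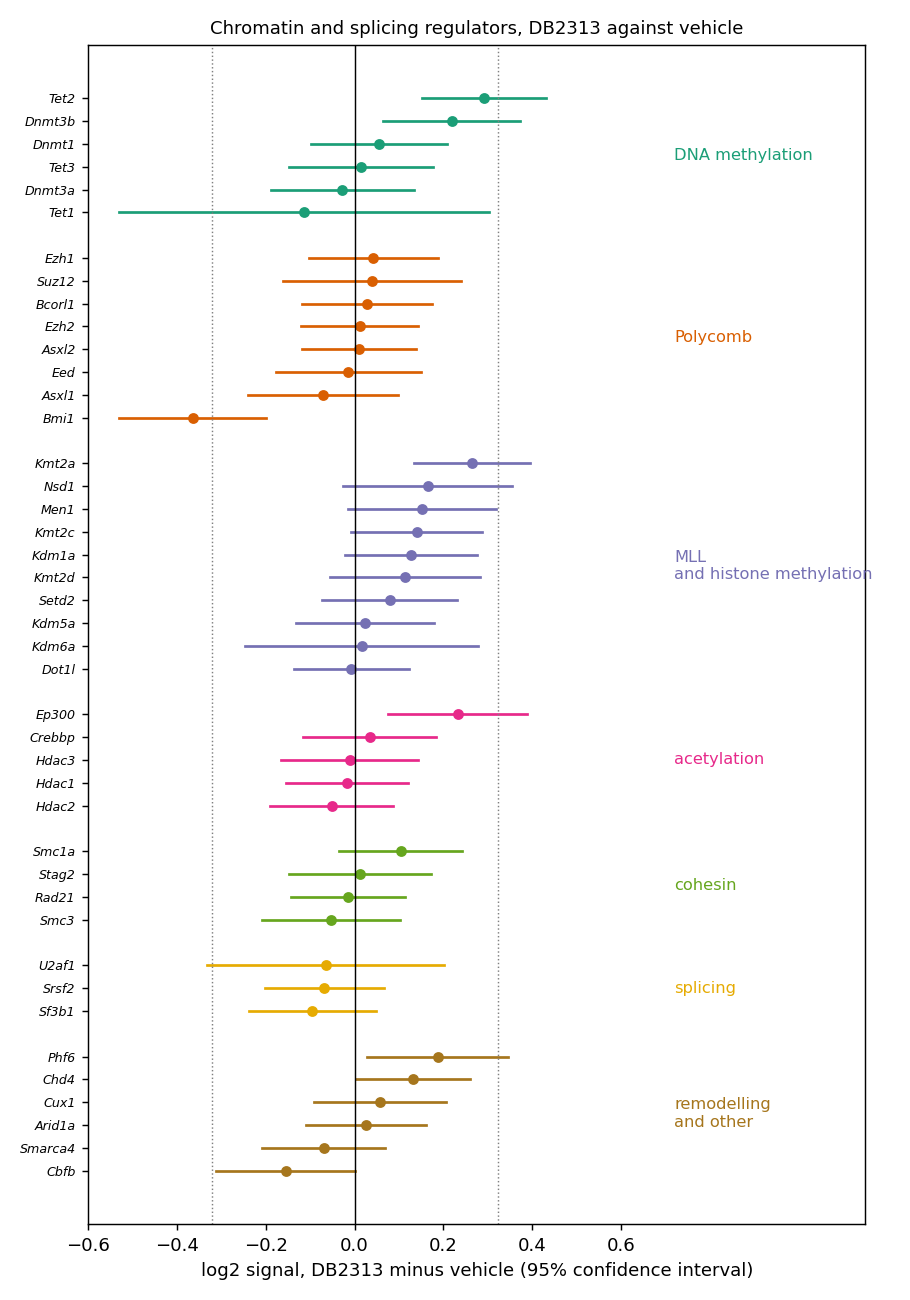
Difference in log2 signal, DB2313 minus vehicle, for the 42 measured regulators by functional group, with points for the estimate and lines for the 95% confidence interval from limma (n = 3 arrays a group); dotted lines mark a 1.25-fold change. Intervals of 7 genes exclude 0, Bmi1 to the left and the other 6 to the right, and most of the MLL group sits right of 0.

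The genes closest to the threshold were Bmi1, Tet2 and Kmt2a, and their calls depended on how dim genes and the variance were handled. With genes below the 0.25 quantile of signal left out, Bmi1, Tet2 and Kmt2a passed (limma adjusted p of 0.0322, 0.0358 and 0.0399), where 3.18% of the 16635 remaining genes were called. With genes below the median of signal left out, the same 3 passed (0.0134, 0.0129 and 0.0135), where 7.2% of 11090 genes were called. With an offset of 32 added on the linear scale they passed as well, where 3.74% of all genes were called. A trended and robust variance prior called these 3 and Ep300, where 4.15% of all genes were called. Omitting any single array gave adjusted p of 0.114 to 0.401 for these 4 genes, and none passed. Calls over all genes also became fewer then, from 226 higher and 175 lower to 72 to 108 higher and 63 to 85 lower. The log2 differences stayed at -0.40 to -0.32 for Bmi1, 0.27 to 0.32 for Tet2, 0.25 to 0.28 for Kmt2a and 0.20 to 0.27 for Ep300. Spi1 itself, the gene of the inhibited factor, had 6.52, 6.49 and 6.50 on the DB2313 arrays, against 6.79, 6.88 and 6.95 on the vehicle arrays, and fell by 0.37 on the log2 scale (adjusted p = 0.0342). The groups did not overlap for it, and omitting any single array ended its call (adjusted p of 0.0648 to 0.134), as did the replicate block (0.113) and the unmoderated test (0.0872).

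**Figure D2:**
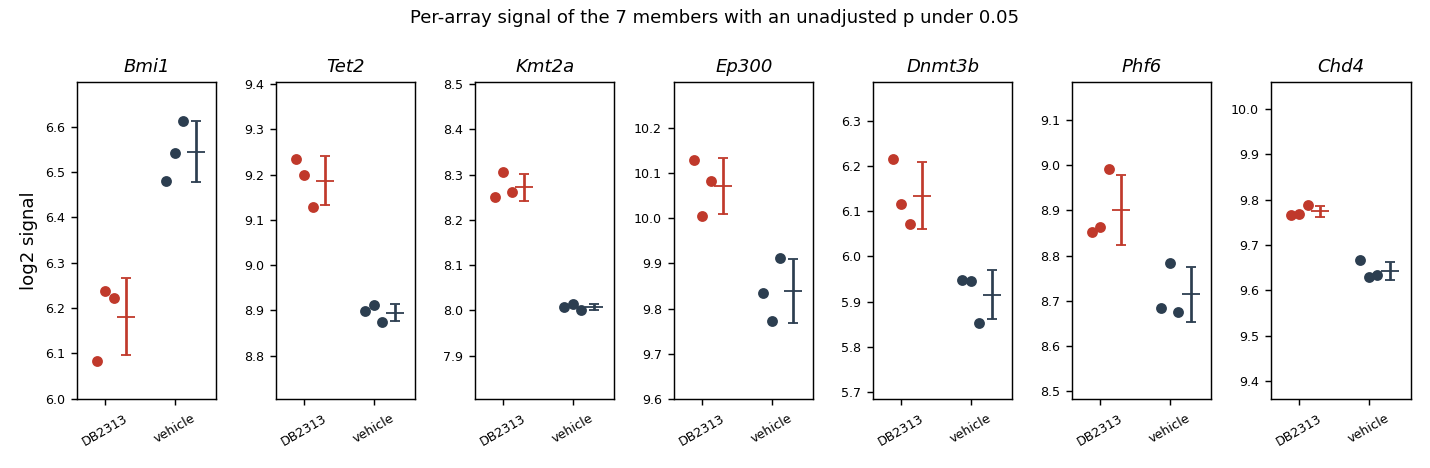
Log2 signal on each array for the 7 regulators with an unadjusted p under 0.05, DB2313 left of vehicle in each panel; points are arrays, and the bar beside them is the mean with its SD (n = 3). Every panel spans the same height on the log2 scale, and in each the 3 DB2313 arrays are clear of the 3 vehicle arrays, below for Bmi1 and above for the other 6.

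The enzymes of DNA methylation were all measured, 3 methyltransferases and 3 TET dioxygenases. Tet2, which oxidises methylcytosine and is among the genes most often lost in human clonal haematopoiesis, had 9.23, 9.20 and 9.13 on the DB2313 arrays, against 8.90, 8.91 and 8.87 on the vehicle arrays. All 3 DB2313 arrays were higher, by 0.29 on the log2 scale (SE 0.060, 95% confidence interval 0.15 to 0.43, adjusted p = 0.0660). Dnmt3b, a de novo methyltransferase, had 6.22, 6.12 and 6.07 on the DB2313 arrays, against 5.95, 5.95 and 5.85 on the vehicle arrays, again without overlap, a difference of 0.22 (SE 0.067, adjusted p = 0.215). Its close relative Dnmt3a, the methyltransferase most often mutated in human acute myeloid leukaemia, differed by -0.028 with an interval of -0.19 to 0.13. Dnmt1, which copies methylation to the new strand after replication, had 10.20, 10.19 and 10.29 on the DB2313 arrays, against 10.20, 10.09 and 10.21 on the vehicle arrays, and the groups overlapped. Tet3 differed by 0.015 (interval -0.15 to 0.18). For Tet1 the signal was low and uneven, with 3.95, 4.57 and 4.67 on the DB2313 arrays, against 4.38, 4.60 and 4.55 on the vehicle arrays. DB2313 replicate 1 was the lowest of the 6 arrays for Tet1, and the difference of -0.11 became 0.11 without it. The median difference of the 6 genes was 0.034, with 4 of 6 above 0. With any 1 array left out that median ranged from -0.0090 to 0.089, and it was below 0 without vehicle replicate 2.

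Polycomb genes were represented by 8 of the 10 listed. Bmi1, a RING finger subunit of Polycomb repressive complex 1 that blood stem cells need for self-renewal, had the largest difference of the 42 genes in either direction. It had 6.08, 6.24 and 6.22 on the DB2313 arrays, against 6.48, 6.54 and 6.61 on the vehicle arrays, so that every DB2313 array was below every vehicle array. The difference was -0.36 on the log2 scale (SE 0.071, interval -0.53 to -0.20), or 1.29-fold lower, with an adjusted p of 0.0546, outside the threshold. For the core subunits of Polycomb repressive complex 2 the estimates lay near 0. Ezh2, its main histone methyltransferase, had 9.21, 9.19 and 9.25 on the DB2313 arrays, against 9.23, 9.20 and 9.19 on the vehicle arrays, a difference of 0.011 (interval -0.12 to 0.14). The alternative methyltransferase Ezh1 differed by 0.042, and the scaffold subunits Eed and Suz12 by -0.014 and 0.039, all with overlapping groups. Asxl1, a cofactor of the deubiquitinase that opposes complex 1, had 7.25, 7.20 and 7.31 on the DB2313 arrays, against 7.44, 7.25 and 7.29 on the vehicle arrays, with overlap and a difference of -0.072. Its paralogue Asxl2 differed by 0.0096 and the corepressor gene Bcorl1 by 0.029. The median difference of the 8 genes was 0.010, ranging from -0.0069 to 0.022 with any 1 array left out and below 0 without DB2313 replicate 3.

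The region before the start of Bmi1 is shown with those of Kmt2a and Ep300, because these are genes with an unadjusted p under 0.01 and the inhibited factor is an ETS protein. Tet2 also met that limit, but its window lies inside the annotated extent of the gene and is not shown. The stretches are from RefSeq, mouse build GRCm38.p6, written on the strand of the gene and ending just before its annotated extent, and capitals mark the ETS core GGAA or its reverse complement TTCC. The Kmt2a stretch also lies within the extent of the long non-coding RNA gene Gm39326.
Bmi1, chr2:18676768-18677017, plus strand: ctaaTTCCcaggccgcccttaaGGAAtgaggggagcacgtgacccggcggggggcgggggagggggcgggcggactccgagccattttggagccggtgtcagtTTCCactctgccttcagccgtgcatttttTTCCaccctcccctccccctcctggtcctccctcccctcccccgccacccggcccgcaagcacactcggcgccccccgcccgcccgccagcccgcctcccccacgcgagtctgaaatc
Kmt2a, chr9:44881353-44881539, minus strand: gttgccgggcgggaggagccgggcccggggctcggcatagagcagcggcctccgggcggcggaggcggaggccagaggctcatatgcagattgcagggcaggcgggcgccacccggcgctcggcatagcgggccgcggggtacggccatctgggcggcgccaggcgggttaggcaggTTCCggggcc
Ep300, chr15:81585964-81586208, plus strand: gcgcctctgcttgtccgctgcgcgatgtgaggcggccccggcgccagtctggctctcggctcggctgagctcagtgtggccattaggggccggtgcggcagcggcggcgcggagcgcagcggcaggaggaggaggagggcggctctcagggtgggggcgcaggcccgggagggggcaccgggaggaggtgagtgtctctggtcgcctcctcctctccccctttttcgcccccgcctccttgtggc
The core occurred 4 times in the 250 bases of Bmi1, 1 time in the 187 of Kmt2a and 0 times in the 245 of Ep300. Windows of 300 bases, 250 before to 50 after the most upstream start, were available for 35 of the 42 genes and for 16918 of the genes tested. In these windows GGAA on either strand was found for 28 of the 35 genes, against 95.7% of all windows. The PU box GAGGAA, which contains that core, was found on either strand for 10 of 35 (27.2% of all windows), among them Ep300 and Dnmt3b but not Bmi1, Tet2 or Kmt2a. The overlapping ETS motif GGAAGT was found for 6 of 35 (25.1% of all windows), and CCGGAAGT, which contains it, for 1 of 35 (5.23%). A match describes letters in this window and nothing about binding.

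Among 10 MLL and related histone methylation genes none passed, and 9 of the 10 differences were small and above 0. Their median was 0.12, and in 5 of them (50%) the DB2313 arrays all lay above the vehicle arrays. That pattern was found in 9.75% of all genes tested and 14.7% of genes with a signal at or above the median. Of all genes tested, 49.1% were above 0, as were 51.1% of genes with a signal at or above the median. Of the 41 other MLL and histone methylation genes described below, 21 were above 0 and 20 below, with a median of 0.0064. The median of this group stayed between 0.091 and 0.14 with any single array left out and with quantile normalization, median centring or the offset. The trended and robust prior, the replicate block and the unmoderated test leave log2 differences unchanged and could not move it. Nor could the mean of rows, as each of these genes has a single row. The filters could move it only by leaving out Kdm6a. Kmt2a, the MLL1 methyltransferase that is broken by translocations in human leukaemia, had 8.249, 8.306 and 8.262 on the DB2313 arrays, against 8.008, 8.015 and 8.001 on the vehicle arrays. Its vehicle arrays were within 0.014 of each other, and the difference was 0.26 (SE 0.056, interval 0.13 to 0.39, adjusted p = 0.0762). Kmt2c, an enhancer methyltransferase, had 7.76, 7.76 and 7.66 on the DB2313 arrays, against 7.62, 7.61 and 7.53 on the vehicle arrays, also without overlap, a difference of 0.14 (adjusted p = 0.425). Men1, encoding menin, which tethers MLL1 to its targets, differed by 0.15 (interval -0.015 to 0.32). The methyltransferase Nsd1 differed by 0.16 (interval -0.025 to 0.35) and the demethylase Kdm1a, or LSD1, by 0.13 (interval -0.023 to 0.27), with no overlap in these 3 genes either. Kmt2d had 0.11, Setd2, which marks gene bodies behind RNA polymerase, 0.079, and the demethylase Kdm5a 0.023, with overlap. Dot1l, a methyltransferase recruited by MLL fusion proteins, had 9.38, 9.35 and 9.38 on the DB2313 arrays, against 9.39, 9.38 and 9.36 on the vehicle arrays, with overlap and a difference of -0.0075. Kdm6a, the X-linked demethylase UTX, was a dim row, with 3.47, 3.44 and 3.49 on the DB2313 arrays, against 3.25, 3.71 and 3.38 on the vehicle arrays, and its difference was 0.016 (interval -0.25 to 0.28).

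**Figure D3:**
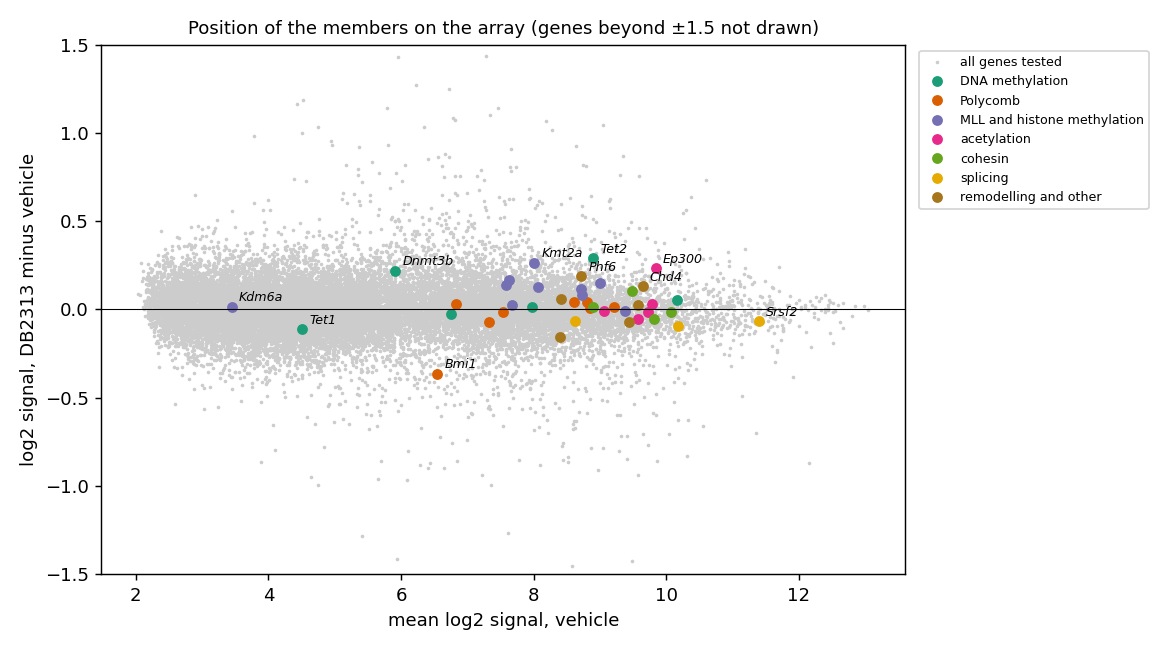
Mean log2 signal on the 3 vehicle arrays (horizontal) against the difference in log2 signal, DB2313 minus vehicle (vertical), for all 22180 genes tested in grey and the 42 regulators in colour; genes beyond ±1.5 are not drawn. Most regulators lie in the upper range of signal, with Kdm6a and Tet1 to the left, and none stands clear of the grey cloud.

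Acetylation was covered by 5 of 6 genes. Ep300, the histone acetyltransferase p300, had 10.13, 10.00 and 10.08 on the DB2313 arrays, against 9.83, 9.77 and 9.91 on the vehicle arrays. The groups did not overlap, and the difference was 0.23 (SE 0.067, interval 0.075 to 0.39, adjusted p = 0.191). Its paralogue Crebbp differed by 0.034 (interval -0.12 to 0.18), with overlap. The 3 deacetylases measured in this group, which remove what these enzymes add, were close to 0. Another deacetylase gene, Hdac8, is counted below among the other genes. It differed by 0.28 without overlap (limma adjusted p = 0.160). Hdac2 had 9.49, 9.55 and 9.54 on the DB2313 arrays, against 9.62, 9.53 and 9.57 on the vehicle arrays, a difference of -0.052 with overlap, while Hdac1 differed by -0.016 and Hdac3, the catalytic subunit of the NCoR corepressor complexes, by -0.011.

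Cohesin was fully measured and gave 4 intervals within a 1.25-fold change. The ring subunit Smc1a had 9.55, 9.58 and 9.64 on the DB2313 arrays, against 9.47, 9.46 and 9.52 on the vehicle arrays, without overlap but with a difference of only 0.10 (adjusted p = 0.538). Its partner in the ring, Smc3, had 9.80, 9.77 and 9.70 on the DB2313 arrays, against 9.87, 9.85 and 9.73 on the vehicle arrays, a difference of -0.053 with overlap. Rad21, the subunit that closes the ring, had 10.04, 10.04 and 10.07 on the DB2313 arrays, against 10.06, 10.06 and 10.07 on the vehicle arrays, a difference of -0.015 with overlap. Stag2, the cohesin subunit most often mutated in human cancer, differed by 0.013 (interval -0.15 to 0.17).

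All 3 splicing factors measured were slightly below 0, with a median of -0.068 that ranged from -0.12 to -0.065 with any 1 array left out (-0.12 without DB2313 replicate 2 or vehicle replicate 3). Srsf2, an SR protein that binds exonic enhancers, had 11.32, 11.32 and 11.33 on the DB2313 arrays, against 11.36, 11.37 and 11.45 on the vehicle arrays, a difference of -0.068 without overlap (interval -0.20 to 0.067, adjusted p = 0.701). Sf3b1, which holds the branch point, had 10.09, 10.14 and 10.04 on the DB2313 arrays, against 10.22, 10.19 and 10.13 on the vehicle arrays. These groups overlapped, with a difference of -0.095 (interval -0.24 to 0.048). U2af1, which recognises the end of the intron, varied more, from 8.40 to 8.84 among the vehicle arrays alone, and its difference of -0.065 had an interval of -0.33 to 0.20. These rows report total transcript signal per gene, and splicing itself was not measured.

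Among the remodelling ATPases and the remaining genes, Phf6, an X-linked chromatin reader mutated in human leukaemias, had 8.85, 8.86 and 8.99 on the DB2313 arrays, against 8.68, 8.78 and 8.67 on the vehicle arrays. The difference was 0.19 (SE 0.068, adjusted p = 0.308), with no overlap. Chd4, the ATPase of the NuRD complex, had 9.77, 9.77 and 9.79 on the DB2313 arrays, against 9.67, 9.63 and 9.63 on the vehicle arrays, and here the arrays of each group were within 0.036 of each other, with a difference of 0.13 (SE 0.056, adjusted p = 0.387). Lower without overlap were Cbfb and Smarca4. Cbfb, the partner of RUNX proteins, differed by -0.16 (interval -0.31 to 0.0013, adjusted p = 0.399), and Smarca4, the BRG1 ATPase of the SWI/SNF complex, by -0.070 (interval -0.21 to 0.069). Arid1a, a DNA-binding SWI/SNF subunit, differed by 0.025. The homeodomain factor Cux1, the single gene of the 42 with a second row, differed by 0.057 in the brighter row (0.017 to 0.082 with any 1 array left out), with overlap. Its dimmer row, with a mean signal of 3.04 on the log2 scale, differed by 0.055 with an SE of 0.12 (adjusted p = 0.904).

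The position of these rows on the array bears on how well they were measured. The mean vehicle signal was above the median of all genes for 40 of the 42 genes with Tet1 and Kdm6a as the exceptions, and above the 0.75 quantile for 35. By group, mean vehicle signals spanned 4.51 to 10.17 for DNA methylation, 6.55 to 9.21 for Polycomb and 3.45 to 9.38 for MLL and histone methylation. They spanned 9.06 to 9.84 for acetylation, 8.89 to 10.07 for cohesin, 8.63 to 11.39 for splicing and 8.40 to 9.64 for remodelling and the remaining genes (log2). The median SE of the difference was 0.065 for the 42 genes, against 0.082 over all genes tested. It was 0.072 for genes with a signal at or above the median. Signals of different rows depend on their probes and were not compared as amounts of transcript.

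Other genes of the same complexes or of related functions were counted from the same fit, using 7 lists of 268 genes of which 249 were measured. In all, 5 rose and 2 fell (1.02% and 0.789% of all genes tested did), and 242 did not pass. The mean vehicle signal was above the median of all genes for 233 of the 249. Of the 11090 genes with a signal at or above the median, 212 rose and 161 fell. Among 32 Polycomb genes, Mtf2, a subunit that guides complex 2 to unmethylated CpG islands, rose and none fell. It had 8.04, 8.06 and 8.12 on the DB2313 arrays, against 7.64, 7.51 and 7.49 on the vehicle arrays, a difference of 0.52 (SE 0.067, adjusted p = 0.0111) with the groups well apart. Among 41 MLL and histone methylation genes, Aff1 and Mllt3 rose and none fell; both encode elongation complex subunits that are fused to MLL1 in human leukaemia. Aff1 had 8.78, 8.78 and 8.87 on the DB2313 arrays, against 8.40, 8.33 and 8.35 on the vehicle arrays, a difference of 0.45 (adjusted p = 0.0136). Mllt3 had 7.46, 7.50 and 7.30 on the DB2313 arrays, against 7.06, 6.96 and 6.92 on the vehicle arrays, a difference of 0.44 (adjusted p = 0.0350).

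Among 47 remodelling genes, Chd7 and Chd9, from another branch of the CHD family than Chd4, rose and none fell. Chd7 had 8.96, 8.98 and 8.98 on the DB2313 arrays, against 8.55, 8.62 and 8.59 on the vehicle arrays, a difference of 0.38 (adjusted p = 0.0191). Chd9 had 8.40, 8.29 and 8.28 on the DB2313 arrays, against 7.89, 7.92 and 7.77 on the vehicle arrays, a difference of 0.46 (adjusted p = 0.0203). In both the DB2313 arrays stood clear above the vehicle arrays. Among 48 splicing genes, U2af1l4, a relative of U2af1, fell and none rose, with 7.26, 7.23 and 7.11 on the DB2313 arrays, against 7.62, 7.67 and 7.69 on the vehicle arrays and a difference of -0.46 (adjusted p = 0.0179). Its dimmer row differed by 0.018, and the mean of its rows did not pass (adjusted p = 0.340). Among 20 genes around DNA methylation, Apobec1, a cytidine deaminase best known for editing RNA, fell and none rose, with 6.10, 6.20 and 6.10 on the DB2313 arrays, against 6.66, 6.79 and 6.54 on the vehicle arrays and a difference of -0.53 (adjusted p = 0.0191). None of 38 acetylation genes and none of 23 cohesin genes passed in limma, with 8 and 1 at an unadjusted p of 0.05 (21.1% and 4.35%, against 12.7% of all genes tested and 17.6% of genes with a signal at or above the median). The smallest p values were those of the deacetylase Hdac8 and the coactivator Ncoa2 in the first list, with log2 differences of 0.28 and 0.18, and of Esco2, a cohesin acetyltransferase, and Smc6, of the related SMC5/6 complex, in the other, with log2 differences of -0.23 and -0.14.

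With any 1 array left out, Mtf2 kept its call in 4 of 6 settings (adjusted p of 0.0260 to 0.0602) and Apobec1 in 1 of 6 (0.0321 to 0.0928). Aff1, Mllt3, Chd7, Chd9 and U2af1l4 lost theirs in all 6 (0.0510 to 0.140). Over all genes, 226 higher and 175 lower became 72 to 108 higher and 63 to 85 lower in these settings.

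**Figure D4:**
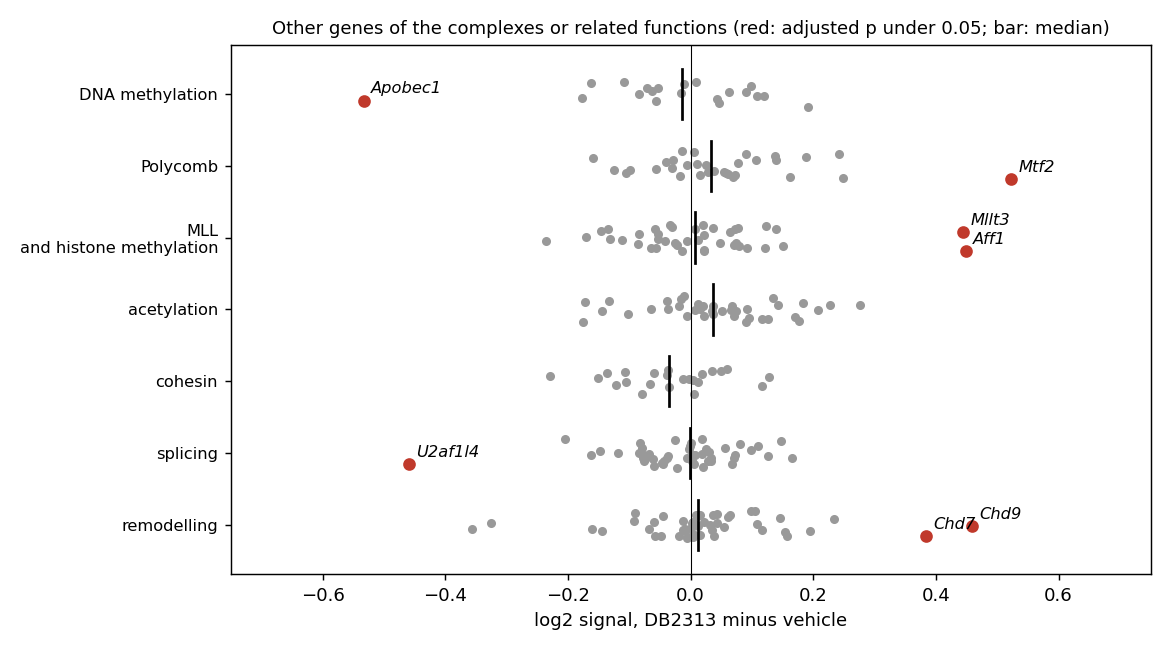
Difference in log2 signal, DB2313 minus vehicle, for 249 other genes of the same complexes or of related functions in 7 lists (vertical scatter within a list has no meaning); red points passed an adjusted p of 0.05, and black bars are list medians. The medians sit near 0 and 7 genes stand out, 5 to the right and 2 to the left.

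The markers of the line were examined in the same table. Of 17 markers of myeloid leukaemia cells, 15 had a mean vehicle signal above the median of all genes, including the granule protease genes Elane, Prtn3 and Ctsg. Cd34 and Ptprc, the common leukocyte antigen, were below it, at 4.59 and 3.32 on the log2 scale in vehicle. Of 14 markers of lymphoid, erythroid, megakaryocytic and natural killer cells 2 were above the median, and of 11 fibroblast, endothelial and epithelial markers 4, namely Col1a1, Col3a1, Pecam1 and Cdh5. Among these markers Gfi1 and Cdh5 rose, by 0.54 and 0.86 on the log2 scale (limma adjusted p of 0.00464 and 0.00222). Spi1 fell, by 0.37 (adjusted p = 0.0342). Of all genes tested, 1.81% were called in either direction. The part of these marker differences in the values above was not tested.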

How the data were processed

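Total RNA from 6 samples was labelled with biotin and hybridised to Affymetrix arrays, per the labels' protocols. The authors deposited log2 values, 1 per row and array; the scale was read from their range. Affymetrix Expression Console was used, per the submitters' processing notes. How background was corrected and probes summarised is not given in the sources used here. Array medians lay between 4.77 and 4.82, so a common normalization before deposit is likely, and a shift in total RNA would not be visible. Background per row was not measured, and the number of arrays limits the precision.

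Of 41345 rows, 23521 had 1 symbol in the platform annotation, 1814 had several and 16010 had none; the brightest row per gene left 22180 genes. DB2313 was compared with vehicle with limma 3.58.1 in R 4.3.3 (lmFit and eBayes, 2-sided, Benjamini-Hochberg over all genes, threshold 0.05, no covariate). The script was tested on simulated data. Median differences of lists are descriptions without a test. Alternatives were quantile normalization, centring on array medians, leaving out genes under the 0.25 quantile or the median of signal, a robust prior with a trend, an added 32 before the logarithm, an unmoderated test, the mean or the next brightest of a gene's rows, replicate number as a block, and omitting each array.

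The members and the lists were chosen with earlier results of these data known. Values of every array are given for members with an unadjusted p under 0.05 and, per group, for the 2 with the smallest p and the 1 with the highest vehicle signal; of each list of other genes, up to 4 past the threshold or the 2 with the smallest p are named. Tet1, Kdm6a, U2af1 and the genes named beyond this rule were added for their spread or to account for every member. The genome build behind the rows is not given in the sources used here, so coordinates are printed only for RefSeq promoter sequences.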

Additional observations from a re-analysis of the deposited data

How the results depend on the processing

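The count of regulators past the threshold was 0 in both directions with 10 of 15 alternatives, each of the 6 left-out arrays among them. It was 2 higher and 1 lower with either filter or the offset of 32, 3 higher and 1 lower with the trended and robust prior, and 1 higher and 0 lower with the unmoderated test. Over all genes, 226 higher and 175 lower became 436 and 363 with genes below the median left out, 467 and 363 with the offset, 496 and 424 with the trended and robust prior, and 42 and 28 with the unmoderated test. With the replicate block they became 98 and 92, and with an array left out 72 to 108 higher and 63 to 85 lower. The replicate numbers were not taken as pairs. Same-numbered arrays had correlations of their deviations from the group means of 0.023, 0.078 and 0.0083, and the 0.078 of replicates 2 was the highest. Differently numbered arrays had -0.071, -0.055, -0.021, -0.0066, -0.0019 and 0.047, the last for replicate 1 of DB2313 with replicate 3 of vehicle. Whether the numbers mark pairs was not tested.

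Of the other genes counted, the Polycomb count was 2 higher with the median filter, the offset and the trended prior. Under the replicate block and the unmoderated test it was 0. The MLL count was 0 higher under the replicate block and the unmoderated test, and 1 lower with the median filter, the offset and the trended prior. The remodelling count was 0 higher under the block and 1 under the unmoderated test, and 1 lower with the median filter, the offset and the trended prior. The acetylation count was 1 higher with the offset. The splicing count was 0 lower under the block, the unmoderated test and the mean of rows, and the DNA methylation count 0 lower under the unmoderated test. With an array left out, the counts were 0 higher for MLL and remodelling, 0 to 1 for Polycomb, 0 lower for splicing, and 0 to 1 for DNA methylation and remodelling. The median difference ranged from -0.017 to 0.016 for cohesin, -0.12 to -0.065 for splicing, -0.0090 to 0.089 for DNA methylation, -0.0069 to 0.022 for Polycomb and -0.032 to 0.020 for acetylation regulators with an array left out, so that its sign turned for all of these but splicing.

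Direction and side of the threshold held in 598 of 643 alternative values of single regulators and Spi1. This count includes settings in which the direction could not turn. The filters, the trended and robust prior, the replicate block and the unmoderated test leave the log2 difference of a gene unchanged. The mean of rows does so for genes with 1 row. In these settings only the side of the threshold could change. The sign turned in at least 1 setting for 14 regulators, none of which passed anywhere. With an array left out the log2 differences ranged from -0.083 to 0.0093 for Dnmt3a, -0.25 to 0.11 for Tet1, -0.034 to 0.060 for Tet3, -0.0036 to 0.023 for Ezh2, -0.043 to 0.035 for Eed, -0.010 to 0.12 for Suz12, -0.014 to 0.0056 for Dot1l, -0.024 to 0.050 for Kdm5a, -0.081 to 0.15 for Kdm6a, -0.042 to 0.0050 for Hdac1, -0.040 to 0.030 for Hdac3, -0.022 to 0.051 for Stag2 and -0.18 to 0.039 for U2af1. With quantile normalization they were 0.0015 for Dot1l, 0.0047 for Hdac1 and 0.0071 for Rad21. The cause was not tested.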
